A study of Mus musculus with 6 samples.

Results

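The genes described here are 35 genes that dividing cells use to copy their DNA (13 genes) and to pass through mitosis (22 genes), measured in medullary thymic epithelial cells (mTECs) of the mouse. They were chosen by gene symbol as genes of DNA replication and mitosis, with earlier results of these data known. Of 21741 genes with a probe in the authors' processed matrix, 18810 were kept for testing. All 35 members were among them, and the probe of each was well above background on all 6 arrays.

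mTECs present many tissue-restricted proteins to maturing T cells and so help to remove self-reactive ones. They were sorted from thymi of mice 30 days old, of an MBD1 KO genotype and of an MBD1 WT genotype, with 3 arrays for each. Mbd1 encodes a protein that binds methylated DNA. The gate kept EPCAM+ Class II+ cells that were negative for DAPI, a stain of dead cells, and for CD45, CD11c and Ly51. RNA was amplified with a whole transcriptome kit, labelled with Cy3 and hybridised to 1-colour Agilent arrays. The series' design text states that 4 biological replicates were made per genotype and that 1 of each was removed after quality control. The sources used here did not give the strain, the sex, the kind of Mbd1 allele or how many animals made up a replicate. P-values therefore measure the spread between these arrays only.

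A cell that divides first doubles its DNA and then separates the copies. Cyclins switch on kinases in turn, the MCM helicase opens the DNA at replication origins, and enzymes of nucleotide synthesis supply the building blocks. In mitosis, kinases build the spindle, checkpoint proteins hold the chromosomes until each is attached, and a ubiquitin ligase, the anaphase promoting complex, then releases them. RNAs of replication and mitosis genes are low in resting cells and high in dividing ones. In the thymic medulla, dividing epithelial cells are known among the precursors of Aire-expressing mTECs, which no longer divide. In a sorted population measured in bulk, fewer cycling cells and less RNA per cycling cell cannot be told apart.

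The names of the samples and of the matrix columns went against each other, and this bears on every result. The order of probe intensities in 5 matrix columns was identical to that of 1 scanner array each. Column knockout 2 matched the array titled wild type 1, and column knockout 3 the array titled wild type 3. Column wild type 1 matched the array titled wild type 2, column wild type 2 the array titled knockout 1, and column wild type 3 the array titled knockout 3. Column knockout 1 matched none of the 6 arrays, and the array titled knockout 2 matched no column. The targeted gene followed the column names. Mbd1 (probe A_51_P143224) had log2 values of 5.64, 5.61 and 5.6 in knockout columns 1 to 3, against 8.83, 8.6 and 9.0 in wild type columns 1 to 3. It fell by 3.19 on the log2 scale (SE 0.19, limma adjusted p = 4.32e-05), to about the level below which 95% of never detected probes lay (5.46 to 5.62). Whether this probe lies in the deleted part of the gene was not given. Groups are therefore those of the column names, and values under the array titles are given where they differ.

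Promoters of cell cycle genes carry short elements known to switch the genes on in phase. Sequences are shown for Birc5, Plk1 and Ube2c, the mitosis members of smallest unadjusted p-value (limma) that had an entry. Of the replication members only Mcm7, the first by the same rule, is shown. Ube2c has its place through a probe whose symbols disagree, as described below. The cell cycle genes homology region (CHR) and the CCAAT box are known from promoters active in G2 phase and mitosis, and E2F sites from promoters active at the start of DNA synthesis. Each run holds the 250 bases before the annotated start, 5′ to 3′ on the gene's own strand, from RefSeq (GRCm38.p6). Capitals mark matches to any of the 3 elements on either strand.
Birc5, chr11:117848987-117849236, plus strand: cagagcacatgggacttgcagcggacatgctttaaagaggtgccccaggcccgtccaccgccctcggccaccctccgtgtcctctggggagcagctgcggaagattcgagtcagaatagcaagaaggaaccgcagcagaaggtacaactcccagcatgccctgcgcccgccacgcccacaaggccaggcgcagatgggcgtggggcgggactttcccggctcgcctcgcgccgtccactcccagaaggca
Plk1, chr7:122159185-122159434, plus strand: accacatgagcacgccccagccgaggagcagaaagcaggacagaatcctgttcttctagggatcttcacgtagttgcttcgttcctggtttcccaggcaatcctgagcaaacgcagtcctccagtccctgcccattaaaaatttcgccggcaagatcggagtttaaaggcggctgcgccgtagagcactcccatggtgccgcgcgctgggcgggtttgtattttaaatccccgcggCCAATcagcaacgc
Ube2c, chr2:164769679-164769928, plus strand: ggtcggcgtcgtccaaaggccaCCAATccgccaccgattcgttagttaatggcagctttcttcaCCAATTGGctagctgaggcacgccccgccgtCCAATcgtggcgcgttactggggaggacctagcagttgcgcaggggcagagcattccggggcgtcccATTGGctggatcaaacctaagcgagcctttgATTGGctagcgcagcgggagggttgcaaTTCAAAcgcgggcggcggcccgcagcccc
Mcm7, chr5:138171884-138172133, minus strand: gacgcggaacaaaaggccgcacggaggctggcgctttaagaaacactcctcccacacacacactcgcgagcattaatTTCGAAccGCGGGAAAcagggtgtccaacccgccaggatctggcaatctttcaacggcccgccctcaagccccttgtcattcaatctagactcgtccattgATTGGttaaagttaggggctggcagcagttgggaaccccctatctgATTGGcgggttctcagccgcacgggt

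The table held a promoter entry for 28 of the 35 members, and each was searched from 250 bases before the start to 50 after it. The letters searched, on both strands, were TTTGAA and TTCGAA for the CHR, CCAAT for the CCAAT box, and TTTCCCGC, TTTCGCGC, TTTGCCGC and TTTGGCGC for E2F. The CHR letters were present in 13 of 17 mitosis members (76.5%) and 2 of 11 replication members (18.2%), beside 21.7% of all 27025 genes with an entry. The CCAAT letters were present in 16 of 17 mitosis members (94.1%) and 8 of 11 replication members (72.7%), beside 41.1% of all genes with an entry. The E2F letters were present in 4 of 11 replication members (36.4%), which were Mcm3, Mcm5, Mcm6 and Mcm7. They were in 0 of 17 mitosis members and in 2.6% of all genes with an entry. These are shares of genes with the letters in any of their windows, with base composition and number of windows not matched. In Ube2c 1 CCAAT overlaps 1 ATTGG, its other-strand form, and the CHR letters of Plk1 lie in the 50 bases after the start. Birc5 held none of the letters searched, which says nothing of the factors that bind there. Tyms and Rrm1, the replication members next by p-value, are not shown. Tyms held none of the letters and Rrm1 the CCAAT letters alone.

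Of the 35 members, 0 passed the test between the 3 knockout and the 3 wild type columns at an adjusted p of 0.05 (limma, Benjamini-Hochberg over all 18810 genes), and every member had an adjusted p of 0.999. Over all genes, 19 of 18810 passed (0.101%), 17 of them higher in the knockout columns (0.0904%). Most members nevertheless had a small positive difference: 31 were positive and 4 negative, beside 48.6% positive over all genes. The median difference, knockout minus wild type, was 0.22 over the 35 members, 0.22 over the replication genes (12 of 13 positive) and 0.21 over the mitosis genes (19 of 22 positive), against −0.01 over all genes. The members are measured on the same 6 arrays, so their signs are not independent of each other. The 95% interval of the difference ran through 0 for 33 of the 35. The widest limits of those intervals were −0.79 and 1.19, which is how far the data of 3 arrays a group leave a member free to lie.

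At an unadjusted p under 0.05 there were 2 members, Birc5 and Plk1, both positive, beside 4.13% of all genes and 2.11% in that direction. In 2 members, Birc5 and Mcm7, the lowest knockout column exceeded the highest wild type column, beside 3.97% of all genes. In 1 member, Rrm1, every knockout column lay below every wild type column, beside 4.27% of all genes. These counts of members are near the background shares. An exact permutation test of 3 against 3 columns cannot give a p below 0.1. In the authors' deposited table, the smallest unadjusted p of a member was 0.0288, for Birc5, and every member had a false discovery rate of 1.0 after rounding.

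**Figure D1:**
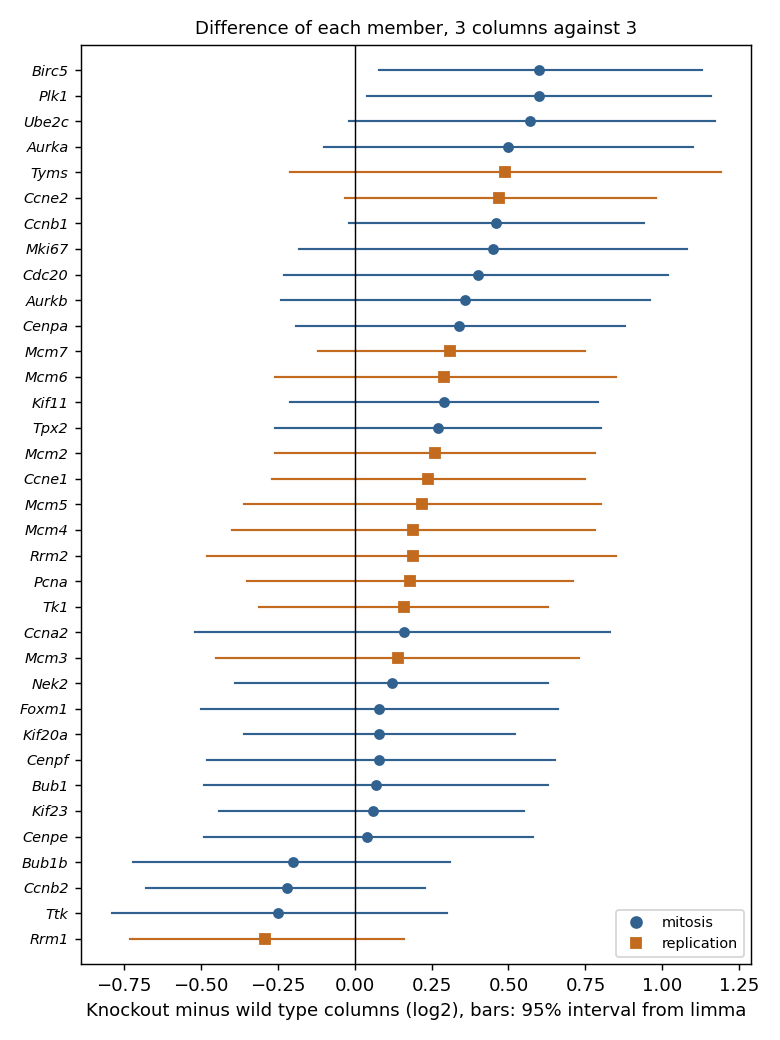
Difference of each of the 35 members, mean of the 3 knockout columns minus mean of the 3 wild type columns, on the log2 scale of the matrix. Points are estimates and bars are 95% intervals from limma; 31 points lie right of 0, and the intervals of Birc5 and Plk1 alone do not reach 0.

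Column wild type 2 carried much of this median. Without it the median of the members was 0.08 and 21 of 35 differences were positive, beside 49.9% of all genes. Without column knockout 2 the median was 0.10 and 24 differences were positive, beside 50.5% of all genes. Leaving out any of the other 4 columns gave medians of 0.23 to 0.34. The slide that carried an array is known for 5 columns: knockout 2, knockout 3 and wild type 1 lay on slide 1, and wild type 2 and wild type 3 on slide 2. As slide 2 held wild type columns alone, a fit with slide as a term rests on slide 1, the mean of knockout 2 and knockout 3 minus the single array wild type 1. The median in that fit was 0.08, with 22 of 35 positive and 0 of 18810 genes passing. Under the array titles, which give 4 of the 5 matched arrays the other genotype's name, the direction turned. The median of the members was then −0.19, with 7 of 35 positive, against a median of 0.12 over all genes.

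**Figure D2:**
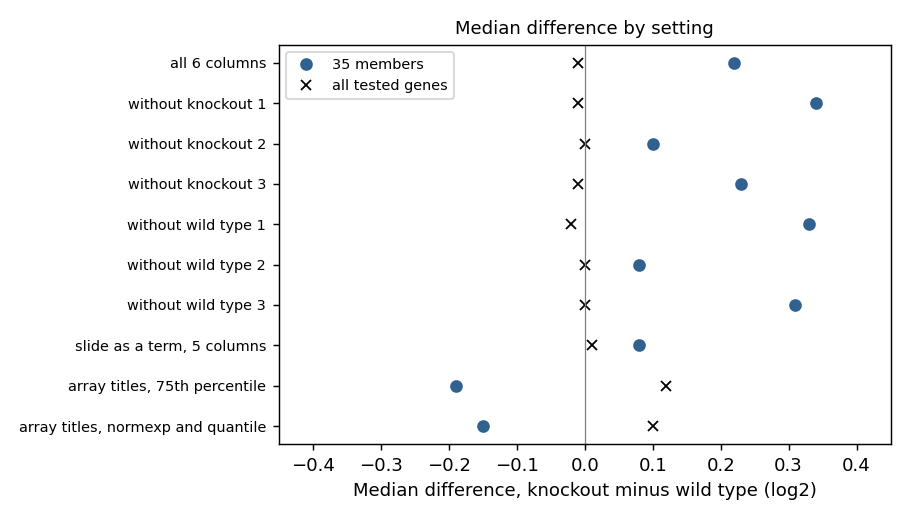
Median difference, knockout minus wild type on the log2 scale, of the 35 members (circles) and of all tested genes (crosses) with all 6 columns, with each column left out, with slide as a term, and with the scanner arrays grouped by their titles. The members' median is 0.22 with all 6 columns, 0.08 without wild type 2 and −0.19 under the titles with 75th percentile scaling.

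The MCM genes encode the 6 subunits of the ring that unwinds DNA at replication forks. All 6 had positive differences, with a median of 0.24, and none passed. Mcm7 had log2 values of 10.48, 10.47 and 10.65 in knockout columns 1 to 3, against 9.95, 10.33 and 10.38 in wild type columns 1 to 3. The groups did not overlap, wild type 1 was the lowest, and the difference was 0.31 (SE 0.20, unadjusted p = 0.142). With 1 column left out it lay between 0.18, without wild type 1, and 0.39. With slide as a term, against wild type 1 alone, it was 0.61 (SE 0.27).
The other subunits overlapped between genotypes and did not share 1 order of columns. Mcm6 had 9.0, 8.82 and 9.69 in the knockout columns, against 9.15, 8.66 and 8.82 in the wild type columns (difference 0.29, SE 0.25). Mcm4 had 11.46, 11.46 and 12.19 in the knockout columns, against 11.89, 11.09 and 11.56 in the wild type columns (difference 0.19, SE 0.27). In both, knockout 3 was the highest column and wild type 2 the lowest. Mcm2 had 8.47, 9.14 and 8.51 in the knockout columns, against 8.72, 8.22 and 8.4 in the wild type columns (difference 0.26, SE 0.24). Mcm5 had 8.28, 9.13 and 8.25 in the knockout columns, against 8.32, 8.06 and 8.63 in the wild type columns (difference 0.22, SE 0.27). In these subunits knockout 2 alone stood high. Mcm3 had 10.06, 10.16 and 10.65 in the knockout columns, against 10.73, 9.90 and 9.82 in the wild type columns, so that wild type 1 was the highest of the 6 columns and the difference was 0.14 (SE 0.27).

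Enzymes of nucleotide supply and the clamp that holds DNA polymerase on its template had a median difference of 0.18, with 4 of 5 positive. Tyms, thymidylate synthase, had 8.15, 9.32 and 8.06 in knockout columns 1 to 3, against 7.92, 7.76 and 8.39 in wild type columns 1 to 3. Knockout 2 alone stood above the others, the groups overlapped, and the difference was 0.49 (SE 0.32, unadjusted p = 0.155). It was 0.08 without knockout 2. Rrm2, the small subunit of ribonucleotide reductase, had 7.97, 8.96 and 8.08 in the knockout columns, against 8.29, 7.63 and 8.52 in the wild type columns (difference 0.19, SE 0.30). Its partner Rrm1, the large subunit, went the other way. Rrm1 had 7.12, 7.23 and 7.32 in the knockout columns, against 7.40, 7.33 and 7.80 in the wild type columns, with no overlap and a difference of −0.29 (SE 0.20, unadjusted p = 0.182). With 1 column left out the Rrm1 difference lay between −0.38 and −0.14, the value without wild type 3, and with slide as a term it was −0.13 (SE 0.31).
Pcna, the clamp, had 11.93, 12.32 and 11.66 in the knockout columns, against 11.91, 11.40 and 12.06 in the wild type columns (difference 0.18, SE 0.24). Tk1, which salvages thymidine, had 8.05, 8.42 and 7.81 in the knockout columns, against 7.78, 7.92 and 8.08 in the wild type columns (difference 0.16, SE 0.21). In both, knockout 2 was the highest column and knockout 3 lay below at least 1 wild type column.

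The E cyclins activate Cdk2 as cells enter S phase, and both had positive differences. Ccne2 had 7.76, 8.37 and 8.17 in knockout columns 1 to 3, against 7.35, 7.6 and 7.92 in wild type columns 1 to 3. The groups overlapped through knockout 1 and wild type 3, and the difference was 0.47 (SE 0.23, unadjusted p = 0.0631). It lay between 0.34 and 0.65 with 1 column left out. With slide as a term, against wild type 1 alone, its lowest column, it was 0.92 (SE 0.29, limma adjusted p = 0.747). Ccne1 had 8.47, 8.12 and 8.67 in the knockout columns, against 8.42, 7.80 and 8.31 in the wild type columns (difference 0.24, SE 0.23). Wild type 2 was the lowest column for Ccne1 and wild type 1 for Ccne2. The probe taken for Ccne2 was named Ccne2 in the Agilent column, but both Ints8 and Ccne2 in the Ensembl column. A second probe with the same names had a difference of −0.15, and the mean over the probes gave 0.16. The value for Ccne2 is thus uncertain.

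**Figure D3:**
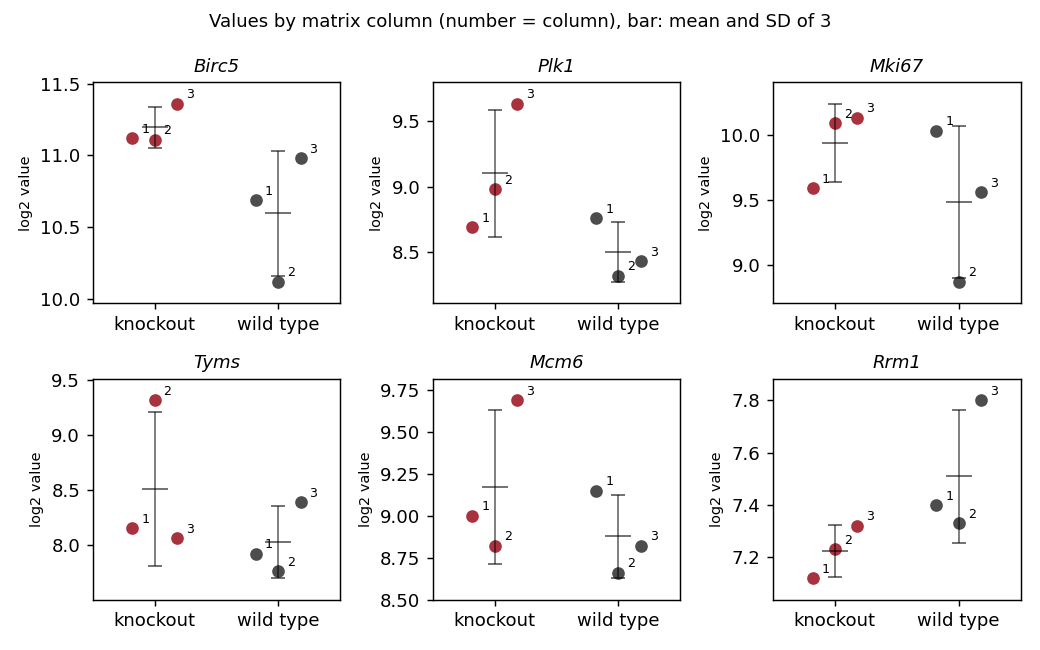
Log2 values of 6 members in each matrix column, with 3 knockout columns left and 3 wild type columns right in each panel; the number beside a point is the column number, and bars give the mean and SD of the 3 columns. In Birc5 and Rrm1 the genotypes do not overlap, and in Plk1, Mki67, Tyms and Mcm6 they do.

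Among the cyclins that drive mitosis, Ccnb1 and Ccnb2, which activate Cdk1, stood on opposite sides of 0. Ccnb1 had 8.0, 8.37 and 8.66 in knockout columns 1 to 3, against 8.07, 7.79 and 7.79 in wild type columns 1 to 3 (difference 0.46, SE 0.22, unadjusted p = 0.0592). Ccnb2 had 8.16, 8.50 and 8.13 in the knockout columns, against 8.37, 8.76 and 8.33 in the wild type columns (difference −0.22, SE 0.21). Ccnb2 was the 1 member that was highest in wild type 2, and the groups overlapped in both genes. Ccna2, the A cyclin of S phase and G2, had 8.02, 8.71 and 8.04 in the knockout columns, against 8.44, 7.38 and 8.47 in the wild type columns (difference 0.16, SE 0.31). Wild type 2 stood well below the other 5 columns for Ccna2.

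Of the 7 mitotic kinases, 5 had positive differences, with a median of 0.12. Plk1, a kinase of mitotic entry and spindle assembly, had 8.69, 8.98 and 9.63 in knockout columns 1 to 3, against 8.76, 8.32 and 8.43 in wild type columns 1 to 3. The difference was 0.60 (SE 0.26, 95% interval 0.04 to 1.16, unadjusted p = 0.0387). Knockout 3 stood highest, and knockout 1 lay below wild type 1, so the groups overlapped. The Plk1 difference was 0.33 without knockout 3, and up to 0.80 with another column left out. It was 0.55 (SE 0.34) with slide as a term.
Aurka, the Aurora kinase of centrosomes and spindle poles, had 9.87, 10.11 and 10.74 in the knockout columns, against 10.17, 9.36 and 9.68 in the wild type columns. The difference was 0.50 (SE 0.27). It was 0.25 without knockout 3, up to 0.72 with another column left out, and 0.25 (SE 0.35) with slide as a term. Aurkb, the Aurora kinase of the chromosomal passenger complex, had 6.93, 7.63 and 7.58 in the knockout columns, against 7.52, 6.59 and 6.94 in the wild type columns (difference 0.36, SE 0.28). Wild type 2 was the lowest column for both Aurora kinases, and wild type 1 lay above knockout 1 for both.
Kinases of the spindle checkpoint, which delays anaphase until chromosomes are attached, had differences close to 0 or negative. Bub1 had 8.54, 8.93 and 9.34 in the knockout columns, against 9.27, 8.6 and 8.73 in the wild type columns (difference 0.07, SE 0.26). Bub1b had 7.17, 7.42 and 6.72 in the knockout columns, against 7.06, 7.26 and 7.6 in the wild type columns (difference −0.20, SE 0.24). Ttk had 6.77, 7.28 and 6.45 in the knockout columns, against 7.25, 6.75 and 7.24 in the wild type columns (difference −0.25, SE 0.25). For Bub1b and Ttk, knockout 3 was the lowest of the 6 columns, where for Bub1 it was the highest. Nek2, a kinase of centrosome separation, had 6.94, 7.62 and 7.56 in the knockout columns, against 7.04, 7.29 and 7.44 in the wild type columns (difference 0.12, SE 0.23).

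Proteins of the centromere and spindle all had positive differences, 8 of 8, with a median of 0.18. Birc5 encodes survivin, a subunit of the chromosomal passenger complex that carries Aurora B to centromeres. It had 11.12, 11.11 and 11.36 in knockout columns 1 to 3, against 10.69, 10.12 and 10.98 in wild type columns 1 to 3. The genotypes did not overlap, and wild type 2 was the lowest column. The SD was 0.14 over the knockout columns and 0.44 over the wild type columns (n = 3 each). The Birc5 difference was 0.60 (SE 0.24, 95% interval 0.08 to 1.13, limma unadjusted p = 0.0273), a fold of 1.52, the largest among the members. It was 0.36 (SE 0.23) without wild type 2, up to 0.79 with another column left out, and 0.55 (SE 0.40) with slide as a term.
Centromere genes had smaller differences. Cenpa, the histone H3 variant of centromeres, had 7.88, 8.28 and 8.63 in the knockout columns, against 7.96, 7.59 and 8.21 in the wild type columns (difference 0.34, SE 0.24). Cenpe, a kinetochore motor, had 7.6, 7.68 and 8.09 in the knockout columns, against 8.20, 7.44 and 7.6 in the wild type columns (difference 0.04, SE 0.24). Cenpf, another kinetochore protein, had 9.74, 9.98 and 9.33 in the knockout columns, against 10.0, 9.16 and 9.65 in the wild type columns (difference 0.08, SE 0.26). Wild type 2 was the lowest column in each of these 3 genes, and wild type 1 was the highest for Cenpe and Cenpf.
Kif11, the motor that pushes spindle poles apart, had 8.82, 9.37 and 9.29 in the knockout columns, against 8.92, 8.56 and 9.13 in the wild type columns (difference 0.29, SE 0.23). Tpx2, which activates Aurora A on the spindle, had 9.07, 9.58 and 9.49 in the knockout columns, against 9.46, 8.69 and 9.19 in the wild type columns (difference 0.27, SE 0.24). Kif23, a motor of cytokinesis, had 9.02, 8.91 and 8.43 in the knockout columns, against 8.82, 8.46 and 8.92 in the wild type columns (difference 0.06, SE 0.22). The groups overlapped in all 3, and knockout 3 was the lowest column for Kif23.

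Cdc20 and Ube2c serve the anaphase promoting complex, Cdc20 as its activator and Ube2c as its ubiquitin-conjugating enzyme. Cdc20 had 11.75, 11.95 and 12.52 in knockout columns 1 to 3, against 12.13, 11.13 and 11.76 in wild type columns 1 to 3 (difference 0.40, SE 0.28). Wild type 2 stood lowest and the groups overlapped. The probe taken for Ube2c, the brightest that carried its symbol, had 9.54, 10.45 and 9.64 in the knockout columns, against 9.44, 8.93 and 9.55 in the wild type columns (difference 0.57, SE 0.27, unadjusted p = 0.0584). That probe was named Ube2c in the matrix's Ensembl column and Heatr5b in its Agilent column, which placed it on chromosome 17, where Ube2c lies on chromosome 2. The other probe, named Ube2c in both columns, had 7.98, 8.97 and 8.06 in the knockout columns, against 8.71, 7.51 and 8.21 in the wild type columns, a difference of 0.19 (SE 0.33). The value for Ube2c is thus uncertain, and knockout 2 was the highest and wild type 2 the lowest column for both probes. Kif20a, a motor of cytokinesis, had the same ambiguity, its brightest probe being named Cdc23 in the Agilent column. That probe had 10.90, 10.97 and 10.63 in the knockout columns, against 10.85, 10.56 and 10.85 in the wild type columns (difference 0.08, SE 0.20). With the Agilent symbol alone the Kif20a difference was 0.21 (SE 0.29), and the median over the 35 members was 0.21.

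Mki67, whose product Ki-67 coats mitotic chromosomes and is the usual marker of dividing cells, had 9.59, 10.09 and 10.13 in knockout columns 1 to 3, against 10.03, 8.87 and 9.56 in wild type columns 1 to 3. The groups overlapped, as knockout 1 lay below wild type 1 and close to wild type 3. The difference was 0.45 (SE 0.29, unadjusted p = 0.145), 0.14 (SE 0.27) without wild type 2, up to 0.72 with another column left out, and 0.08 (SE 0.35) with slide as a term. Foxm1, a transcription factor of G2 and mitosis genes, had 9.70, 9.69 and 9.29 in the knockout columns, against 9.94, 8.92 and 9.57 in the wild type columns (difference 0.08, SE 0.26). Wild type 1 was the highest column for Foxm1 and wild type 2 the lowest.

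The members varied more among columns of 1 genotype than genes in general. Their median SD within a genotype was 0.34, beside 0.26 over all genes, and their median range over the 6 columns was 0.91, beside 0.70. Members and all genes were not matched for level in this comparison. Wild type 2 was the lowest column for 24 of 35 members (68.6%), 16 mitosis and 8 replication genes, and it was the lowest for 12.2% of all genes. The 11 exceptions were Mcm3, Mcm7, Rrm1, Tk1, Ccne2, Ccnb2, Bub1, Bub1b, Kif23, Nek2 and Ttk. Knockout 2 was the highest column for 15 members (42.9%, beside 18.1% of all genes) and knockout 3 for 12 (34.3%, beside 24.2%).

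Set against each member's own mean over the 6 columns, the median deviation was −0.12, 0.22 and 0.25 in knockout columns 1 to 3, against 0.06, −0.46 and 0.01 in wild type columns 1 to 3. Over all genes the same median lay between −0.02 and 0.02 in every column. Knockout 1 thus lay below wild type 1 and wild type 3 in this measure, with 9 of 35 members above their own mean, while wild type 2 had 2 of 35 above. The share of probes well above background was 74.8% on the array that matched wild type 2, within the 73.5% to 81.3% of the 6 arrays. Columns are single arrays, and the choice of wild type 2 for this description was made after its values were seen.

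**Figure D4:**
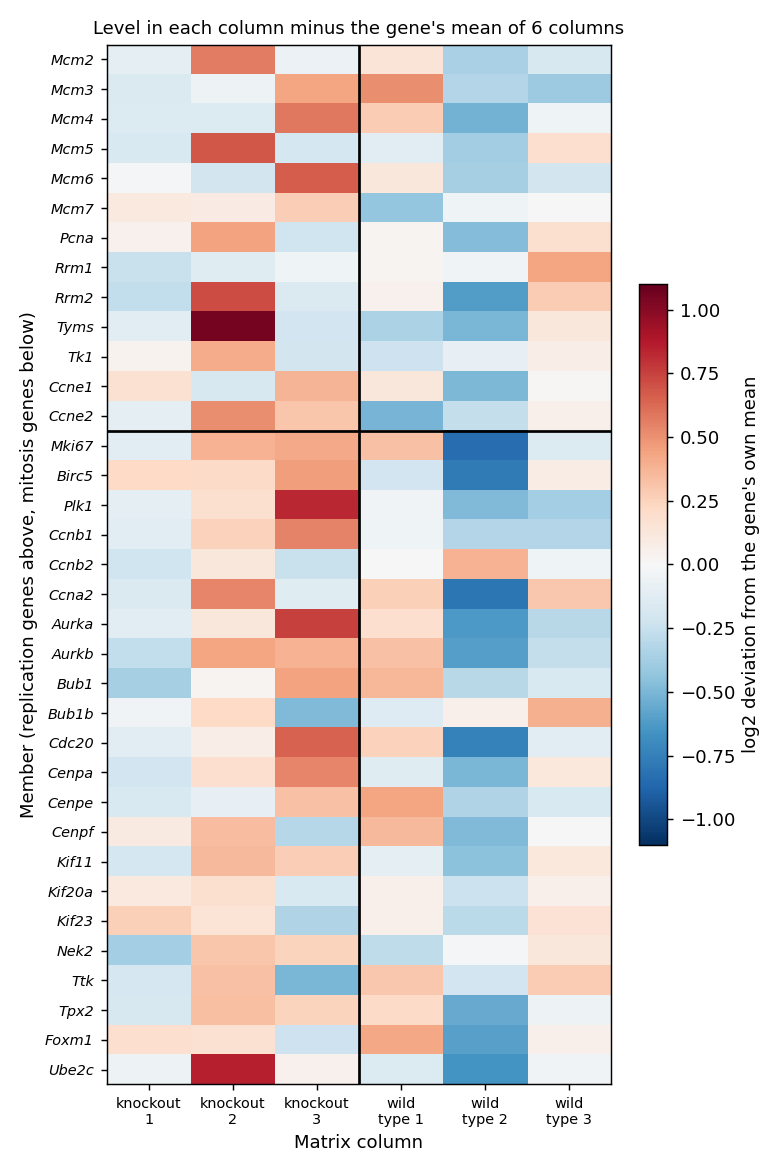
Log2 deviation of each member from its own mean over the 6 matrix columns, with knockout columns left and wild type columns right of the vertical line, and replication genes above and mitosis genes below the horizontal line. Blue marks values below the gene's mean and fills most of wild type 2, which is the lowest column for 24 of 35 members.

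Both knockout 2 and knockout 3 were above the gene's own mean in 15 of 35 members, and the 2 columns lay within 0.5 of each other in 18. No share of all genes is given beside the 15, so it is not read as a trait of the members. The shares of all genes that differed by over 0.5 follow. Knockout 2 exceeded knockout 3 by over 0.5 in 11 of 35 members, beside 17.2% of all genes. They were Tyms (1.26), Mcm5 (0.89), Rrm2 (0.88), Ttk (0.83), Ube2c (0.81), Bub1b (0.70), Ccna2 (0.67), Pcna (0.66), Cenpf (0.65), Mcm2 (0.63) and Tk1 (0.61), which include 4 of the 5 genes of nucleotide supply and the clamp. Knockout 3 exceeded knockout 2 by over 0.5 in 6 of 35 members, beside 18.5% of all genes, with differences, knockout 2 minus knockout 3, of −0.86 in Mcm6, −0.73 in Mcm4, −0.65 in Plk1, −0.63 in Aurka, −0.58 in Cdc20 and −0.56 in Ccne1. These are differences between 2 single arrays, with no test, and the value of 0.5 was chosen after the data were seen.

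Different probes of 1 gene gave a partial check of these column patterns, as far as they read the same RNA at other places. Probes of Ube2c, Kif20a, Ccne2 and Tyms also carried the symbol of another gene, so they may read different RNAs. Of the 35 members, 20 had 1 probe and 11 had more than 1 probe that was well above background on at least 3 arrays. The 4 probes of Tyms, 1 of them named Tyms-ps in the Agilent column, had differences of 0.49, 0.39, 0.36 and 0.08, knockout minus wild type, and knockout 2 exceeded knockout 3 by 1.26, 0.89, 0.88 and 0.53. A second probe of Mki67 had 7.61, 7.59 and 7.76 in the knockout columns, against 8.43, 6.93 and 7.58 in the wild type columns, a difference of 0.01. Wild type 2 was again its lowest column and wild type 1 its highest. The 4 probes of Ccnb1 had differences of 0.46, 0.22, 0.07 and −0.03. Among the 11 genes, probes disagreed in the sign of knockout minus wild type in 3 (Ccnb1, Ccne2 and Cenpe) and in the order of knockout 2 and knockout 3 in 4 (Ccnb1, Cenpe, Kif11 and Mcm3).

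Other cell cycle genes had a median difference of 0.09 in the same fit, with 0 of 129 passing. At an unadjusted p under 0.05 (limma) there were 4 of 129, beside 4.13% of all genes. Of 54 further genes of mitosis, 40 had positive differences, with a median of 0.17. Those of smallest unadjusted p were Cit (0.54, SE 0.30), a kinase of cytokinesis, Ncapd2 (0.48, SE 0.28), a subunit of condensin, Hmmr (0.41, SE 0.24), a spindle protein, and Cdkn3 (0.65, SE 0.40), a phosphatase of cyclin-dependent kinases. Cdkn3 had 9.69, 10.19 and 10.13 in the knockout columns, against 10.47, 8.50 and 9.09 in the wild type columns, with wild type 1 the highest column and wild type 2 the lowest.
Of 46 further genes of DNA replication, 32 had positive differences, with a median of 0.08. The 4 with an unadjusted p under 0.05 (limma) were all positive, beside 2.11% of all genes with such a p and a positive difference. Clspn, an activator of the replication checkpoint, had 6.31, 7.0 and 6.73 in the knockout columns, against 6.05, 6.11 and 6.27 in the wild type columns (difference 0.54, SE 0.22). Pold1, the catalytic subunit of DNA polymerase delta, had 11.91, 11.77 and 11.89 in the knockout columns, against 11.08, 11.57 and 11.50 in the wild type columns (difference 0.47, SE 0.20). Mcm10, which helps to activate the MCM helicase, had 8.45, 8.03 and 8.31 in the knockout columns, against 7.6, 7.75 and 8.01 in the wild type columns (difference 0.48, SE 0.21). The genotypes did not overlap in these 3 genes, 6.52% of the list, beside 3.97% of all genes. They did overlap in Dbf4, the activator of the kinase Cdc7 (difference 0.62, SE 0.27). All 4 had an adjusted p of 0.999 (limma).

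The lists of G1 genes and of cycle inhibitors did not share the members' median. The G1 list held cyclins and kinases together with Myc family genes, Cdc25a and Skp2. Of its 11 genes 7 were positive, with a median of 0.03. Those of smallest unadjusted p were Skp2 (0.31, SE 0.27), Mycn (0.35, SE 0.31), Mycl (−0.24, SE 0.23) and Ccnd1 (−0.23, SE 0.24). Of 18 inhibitors of the cycle 7 were positive, with a median of −0.03. Cdkn1c, which encodes the kinase inhibitor p57, had 12.80, 12.63 and 13.24 in the knockout columns, against 13.34, 13.39 and 13.18 in the wild type columns (difference −0.41, SE 0.21, unadjusted p = 0.0791). Cdkn1b, which encodes p27, had 12.04, 13.13 and 12.34 in the knockout columns, against 12.45, 11.70 and 11.84 in the wild type columns (difference 0.51, SE 0.30). The groups overlapped in both. Wee1, a kinase that restrains Cdk1, and Fzr1, an activator of the anaphase promoting complex, had differences of 0.28 (SE 0.20) and 0.29 (SE 0.21).

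**Figure D5:**
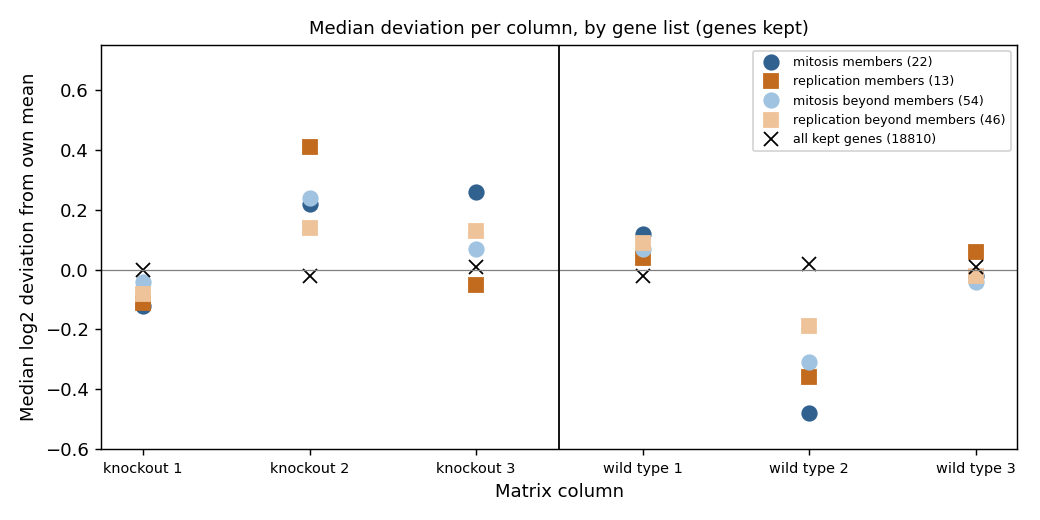
Median log2 deviation from the gene's own mean in each matrix column, knockout columns left and wild type columns right, for mitosis and replication members (dark), for further genes of mitosis and replication (light) and for all kept genes (crosses). Wild type 2 holds the lowest median of each cell cycle list plotted, −0.48 for the mitosis members and −0.31 for the further mitosis genes, while all genes lie between −0.02 and 0.02.

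Markers of the sorted cells and of other cells were read in the same columns, as summed linear levels of the matrix, in which dim probes include background. The mTEC markers, among them Aire, Epcam and Krt14, were all well above background. Their sums were 99011, 99320 and 97931 in knockout columns 1 to 3, against 95140, 107673 and 103444 in wild type columns 1 to 3. H2-Aa alone gave 40.2% to 50.3% of the mTEC sum. Without H2-Aa the sums were 51752, 56932 and 53495 in the knockout columns, against 56880, 53487 and 54955 in the wild type columns. Thymocytes, many of which divide, carry CD45, and the gate excluded CD45+ cells. Of 16 thymocyte markers 15 were kept, 14 had positive differences with a median of 0.43, and 0 passed. Their sums were 11778, 10895 and 14137 in the knockout columns, against 8608, 8738 and 8647 in the wild type columns, with no overlap. Ptprc, which encodes CD45, had 8.06, 7.66 and 8.36 in the knockout columns, against 7.90, 8.21 and 7.84 in the wild type columns, with overlap. Dntt, an enzyme of antigen receptor assembly, had 10.63, 10.62 and 10.89 in the knockout columns, against 9.61, 9.97 and 9.82 in the wild type columns, with no overlap (limma adjusted p = 0.234). Thy1, which gave 31.0% to 57.8% of the sum, was its brightest gene. Without Thy1 the sums were 6196, 7521 and 6606 in the knockout columns, against 3631, 4860 and 4576 in the wild type columns, again with no overlap. The median deviation of the 15 markers was 0.14, 0.36 and 0.16 in the knockout columns, against −0.48, −0.16 and −0.17 in the wild type columns. The part of thymocytes in the members' differences was not tested.

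The other marker lists had 0 genes passing. Cortical epithelial markers summed to 33089, 43096 and 38838 in the knockout columns, against 29907, 31543 and 24385 in the wild type columns, with 5 of 6 positive. Ccl25 alone gave 85.1% to 90.8% of that sum, and without it the genotypes overlapped. Markers of dendritic cells and macrophages, of which 9 of 10 were kept, summed to 67767, 70369 and 78602 in the knockout columns, against 58268, 58124 and 68619 in the wild type columns, with 6 positive. Cd74, the class II invariant chain, which Class II+ mTECs express themselves, gave 79.4% to 85.9% of that sum. Without Cd74 the sums were 11310, 14482 and 11071 in the knockout columns, against 10018, 10191 and 12163 in the wild type columns, with overlap. B cell markers summed to 3776, 4078 and 3693 in the knockout columns, against 2995, 4280 and 3962 in the wild type columns, with 5 of 8 positive. Erythroid markers summed to 6691, 5203 and 4567 in the knockout columns, against 4813, 7590 and 7669 in the wild type columns, with 2 of 5 positive. Fibroblast and endothelial markers summed to 2981, 2314 and 4859 in the knockout columns, against 3144, 2330 and 3037 in the wild type columns, with 4 of 6 positive. In knockout 3, Col3a1 alone gave 68.6% of that sum. Without Col3a1 the sums were 1828, 1787 and 1525 in the knockout columns, against 1704, 1778 and 2379 in the wild type columns. Rag2 and Siglech, of thymocytes and plasmacytoid dendritic cells, were not kept, as their probes were not well above background on 3 arrays. The part of these other cell types was likewise not tested.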

How the data were processed

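Log2 values per probe in 3 knockout and 3 wild type columns came from the matrix the authors deposited, whose method the sources used here do not give. Its columns had nearly equal quartiles (medians 7.13 to 7.14), and their ranks matched spot medians with the background still in them, which understates the folds of dim genes. Per the file headers, scanner files held intensity values per spot from Agilent Feature Extraction 10.7.3.1 (10.6 per the submitters' processing notes), 43379 non-control spots of 41174 probes each, 0 saturated probes and 397 to 1306 outlier spots. The matrix also held the authors' linear fold, p-values and a log-odds score; of these, ratios and p-values of members were read and the score was not used here.

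Probes were matched by the matrix's Agilent or Ensembl symbol, other symbols being updated by gene ID in the RefSeq table, and the brightest probe by the mean of 6 columns stood for a gene. It was kept where well above background on at least 3 of 6 arrays. Genotypes were compared with limma 3.58.1 in R 4.3.3 (lmFit, eBayes, Benjamini-Hochberg over 18810 genes). The fit was also run on simulated data, whose planted changes were larger than any member's difference. That run does not show how well changes of the members' size are found. The text names every member, and of each other cell cycle list the 4 genes of smallest unadjusted p. Alternatives changed the filter, the probe, the moderation, the scaling, the slide, the replicate block, the source of the values and each column. The members and lists were chosen with earlier results of these data known. The number of arrays limits the precision.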

Additional observations from a re-analysis of the deposited data

How the results depend on the processing

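No member passed under any alternative, and the smallest adjusted p of a member was 0.66 (limma, Birc5, without knockout 2). Over the 12 alternatives that could move a member's difference (other probes, centring, slide, titles, a column left out), 50 of 420 member values moved by over 1 SD. Most of these moves were under the array titles, which give most matched arrays the other genotype's name. The rest were with slide as a term or with other probes. No member's difference moved by over 1 SD with 1 column left out. Under the array titles, with 75th percentile scaling and with normexp and quantile normalization in turn, the median difference was −0.19 and −0.15 over all members, −0.30 and −0.26 over mitosis genes, and −0.15 and −0.08 over replication genes. Over all genes these 2 settings gave medians of 0.12 and 0.10. Members wholly higher in the knockout columns, 2 in the reported fit, were 12 over the 5 columns used with the slide term, 14 within slide 1, 1 and 0 under the titles, and 2 to 12 with 1 column left out. Members wholly lower, 1 in the reported fit, were 5 within slide 1, 3 and 2 under the titles, and 1 to 2 with 1 column left out. The share of all genes wholly higher was 8.05% over the 5 columns, 31.5% within slide 1, 8.83% and 10.0% under the titles, and 6.95% to 11.2% with 1 column left out. The share wholly lower was 28.8% within slide 1, 2.16% and 2.08% under the titles, and 7.46% to 12.1% with 1 column left out. The slide term and slide 1 alone gave the same difference for all 35 members. The sample labels give no pairing of the columns. Deviations from the group means had correlations of −0.313, −0.181 and −0.352 in same-numbered columns, and of −0.0178 to 0.249 in other pairs. As columns of a group share its mean, these correlations are not free of each other and do not settle the pairing. With a replicate block the members' median was 0.22, with 0 members passing and 22 genes passing in place of 19. Genes passing ranged from 9 to 35 with 1 column left out, 9 without wild type 2 and 35 without knockout 3, were 12 with no filter on detection, and were 0 with slide as a term, within slide 1 and under the titles. The normexp setting used the median spot intensity. In the titled arrays 1 outlier spot of Cdc20 was left out on 1 array. Precision was limited by 3 arrays a group, and probes of 1 gene disagreed in sign in 3 members.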
